A study of Mus musculus with 4 samples.

Results

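The contractile genes of smooth muscle were followed in single cells of the mouse heart. The set was chosen by gene symbol and holds 10 of the 32287 features counted, namely Acta2, Actg2, Myh11, Myl9, Tagln, Cnn1, Tpm1, Tpm2, Lmod1 and Des, and all 10 were found. Unique molecular identifiers (UMIs, 1 for each captured RNA molecule) were summed over the cells of a class in a library, and a level is the sum scaled to 1000000 UMIs (CPM). Interstitial cells of the heart, meaning the cells left when most cardiomyocytes are lost from the digest, were sorted as live nucleated cells and read with the 10x Genomics 3′ chemistry in 4 libraries. All mice received tamoxifen and carried Tcf21-MerCreMer, a drug-inducible Cre recombinase at the Tcf21 locus, a gene of fibroblast and epicardial lineage cells. Control libraries carried that allele alone, and the libraries called deletion-labelled here carried Tcf21-MerCreMer:flox, for which the labels name neither the floxed gene nor the deleted part. Each genotype was sampled without infarction and 3 days after myocardial infarction, which gives 4 groups of 1 library. The number of hearts in a library and the age, sex and strain of the mice are not given in the labels. With 1 library in each group no difference could be tested against replicates, so all intervals cover counting error only and nothing here separates a group from its library.

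Smooth muscle contracts when calcium-activated myosin light chain kinase phosphorylates the regulatory light chain of smooth muscle myosin, which then pulls on actin filaments wrapped in tropomyosin. In the heart this apparatus is known from the smooth muscle cells of arterioles and larger vessels, whereas pericytes of the capillaries carry less of it, and fibroblasts take up part of it when they become myofibroblasts after injury. Many of its genes are driven by serum response factor, encoded by Srf, which binds the CArG box, together with the coactivators myocardin (Myocd) and the myocardin-related factors (Mrtfa, Mrtfb).

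Sequence is shown for Acta2 and Myl9 because these were the members whose 250 bases before the RefSeq start held a CArG-like sequence, defined as CC, 6 inner bases of which at least 5 are A or T, and GG, a pattern that is read alike on both strands. Promoter sequence from RefSeq on GRCm38.p6, the build of the counts, was matched for 7 of the 10 members, and Actg2, Myh11 and Tagln had no entry in the table. The gene models differ in where they start: 217 of the 250 Acta2 bases and 44 of the 250 Myl9 bases lie in a first exon of the GENCODE M21 model, so Acta2 is shown as 30 bases around each match and Myl9 as the 206 bases before its GENCODE start. All are written 5′ to 3′, with the CArG-like matches in capitals. The Acta2 sites lie at chr19:34255438-34255467 and chr19:34255388-34255417 on the minus strand and the Myl9 stretch at chr2:156775214-156775419 on the plus strand.
Acta2 distal site: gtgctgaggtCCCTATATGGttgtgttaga
Acta2 proximal site: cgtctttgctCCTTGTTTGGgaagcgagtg
Myl9: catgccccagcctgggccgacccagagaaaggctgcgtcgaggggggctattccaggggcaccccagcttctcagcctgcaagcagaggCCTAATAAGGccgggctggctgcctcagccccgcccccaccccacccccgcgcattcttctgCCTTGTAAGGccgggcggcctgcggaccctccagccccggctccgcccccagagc
In Acta2 the matches ended 75 and 25 bases before the RefSeq start. In Myl9 they ended 152 and 90 bases before it, and CCTAATAAGG was the only one of the 4 with A or T at all 6 inner bases. Of 32851 RefSeq windows of the same length, 8.59% held a CArG-like match and 1.47% one with 6 inner A or T bases. The letters CATTCC, the core bound by TEAD factors, were searched on both strands and were found in Acta2, Tpm1 and Lmod1 and in 12.6% of all windows. TATAAA was found in none of the 7 members and in 12.4% of windows. These matches describe letters and not binding.

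Filters and doublet removal left 8289 and 10142 cells in the control and deletion-labelled libraries without infarction and 9141 and 9431 in those with infarction, with medians of 4240 to 5662 UMIs per cell, and 161 barcodes occurred in more than 1 library. Tcf21, the gene whose locus carries the Cre, was read at 98.3 CPM in control and 152 CPM in deletion-labelled resident fibroblasts without infarction, where it was not lower, and at 21.7 and 19.9 CPM in activated fibroblasts of the infarction libraries. Since the floxed gene is not named and reads come from the 3′ end, this does not check the genotype. Neutrophils numbered 34 and 107 without infarction and 3369 in each infarction library, and endothelial cells 4503, 5522, 40 and 289 in the order of control and deletion-labelled without infarction, then with infarction.

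Cells were grouped without using the 10 genes and named from other markers. The smooth muscle-like cluster, called smooth muscle cells here, held 1, 86, 5 and 23 cells in the library order just given, so only the deletion-labelled libraries gave sums of at least 20 cells and no genotype comparison was possible. The pericyte-like cluster held 109, 279, 5 and 45 cells, activated fibroblasts 4, 2, 644 and 653, and resident fibroblasts 1699, 1761, 9 and 317. Only 331 of the 644 and 383 of the 653 activated fibroblasts lay outside clusters of cycling cells, while no resident cluster was cycling. Activated and resident fibroblasts therefore also differ in cycling. A further mural group, here called infarction mural cells, came almost wholly from the infarction libraries with 1, 1, 68 and 93 cells and could be given neither mural name. Another, here called mixed-marker mural cells, carried at least 6 markers of both mural types and held 25, 83, 0 and 4 cells. The data were in view when the limits behind these names and the last 2 groups were chosen.

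The marker lists that gave the names were also summed. A high sum of a group's own list follows from the naming, so these values describe the groups and do not check the names. In the deletion-labelled libraries without and with infarction the smooth muscle markers summed to 6684 and 5781 CPM in smooth muscle cells and to 829 and 1004 CPM in pericytes. Pericyte markers summed to 25561 to 31608 CPM in pericytes and to 15911 and 8047 CPM in smooth muscle cells. Activated fibroblast markers reached 7941 and 9971 CPM in activated fibroblasts of the control and deletion-labelled infarction libraries, against 897 to 1595 CPM in resident fibroblasts. Infarction mural cells of those libraries held 368 and 535 CPM of smooth muscle markers, 6767 and 7329 CPM of pericyte markers and 2518 and 2649 CPM of activated fibroblast markers. General fibroblast markers summed to 3873 and 4738 CPM in them and to 14302 and 18108 CPM in activated fibroblasts. Pericytes and smooth muscle cells of the deletion-labelled infarction library held 1338 and 430 CPM of these. Haemoglobin genes led their larger cluster, with erythroid markers at 5983 CPM in the control and 24.7 CPM in the deletion-labelled library. The part of these other markers in the levels below was not tested.

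Acta2, the smooth muscle alpha-actin of the contractile filament and the usual myofibroblast marker (chr19:34241090-34255590, minus strand, mm10), was highest in smooth muscle cells. It was read at 8931 CPM (95% Poisson interval 8728 to 9138, 7336 UMIs) in the deletion-labelled library without infarction and at 11157 CPM (10743 to 11582, 2748 UMIs) in the one with infarction. In pericytes it was read at 90.2 CPM (65.5 to 121, 44 UMIs) in the control library without infarction, 36.1 CPM (27.1 to 47.1, 54 UMIs) in the deletion-labelled one and 112 CPM (68.1 to 172, 20 UMIs) in the deletion-labelled infarction library. Pericytes thus sat far below smooth muscle cells in both libraries that hold both types. Activated fibroblasts carried 1276 CPM in the control and 991 CPM in the deletion-labelled infarction library, from 30328 and 22254 UMIs. Resident fibroblasts carried 16.1, 20.1 and 18.3 CPM in the control and deletion-labelled libraries without infarction and the deletion-labelled infarction library. Endothelial cells, which stand here for a type without the apparatus, held 3.85, 7.11 and 14.7 CPM in the same libraries. The intervals of both types lay apart without infarction and overlapped in the infarction library. Infarction mural cells, at 5065 and 4994 CPM in the control and deletion-labelled libraries, lay between smooth muscle cells and activated fibroblasts, and the intervals of the classes did not overlap.

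Actg2, the gamma-actin of visceral smooth muscle (chr6:83512905-83536265, minus strand), did not follow Acta2. It was read at 41.4 CPM (34 UMIs) in smooth muscle cells without infarction and from 1 UMI in those with infarction. In infarction mural cells it was read at 101 CPM (82.4 to 122, 106 UMIs) in the control and 133 CPM in the deletion-labelled one (114 to 154, 183 UMIs). These levels were above that of the smooth muscle cells in both libraries. Few cells carried it: 9 of 68 and 18 of 93 infarction mural cells had any Actg2 UMI, and the single highest cell held 51 of the 106 and 55 of the 183. A small cycling cluster of 11 deletion-labelled cells held 146 of the 183, at 512 CPM, against 33.9 CPM in the other 82 cells. Activated fibroblasts carried 6.19 and 5.83 CPM from 147 and 131 UMIs, and pericytes had no Actg2 UMI in any of the 3 libraries with at least 20 of them.

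Myh11, the smooth muscle myosin heavy chain (chr16:14194535-14291372, minus strand), was far higher in smooth muscle cells than in any other group compared here. Smooth muscle cells carried 4817 CPM (3957 UMIs) without and 3861 CPM (951 UMIs) with infarction. Pericytes carried 28.7, 24.1 and 33.5 CPM in the control and deletion-labelled libraries without infarction and the deletion-labelled infarction library. In activated fibroblasts it was read from 23 UMIs (0.968 CPM) in the control and 2 UMIs in the deletion-labelled one (0.0891 CPM), where the 40 and 289 endothelial cells of these libraries held 0 and 0.702 CPM and those without infarction 3.24 and 3.41 CPM. Infarction mural cells held 106 CPM (112 UMIs) and 159 CPM (219 UMIs), and 86 of the 219 UMIs lay in a single cell. Both sums lay far below the smooth muscle level. Myl9, a regulatory light chain of smooth muscle and non-muscle myosin (chr2:156775420-156781658, plus strand), was spread more widely. It was read at 3369.9 and 3483 CPM in smooth muscle cells without and with infarction, at 139 to 279 CPM in pericytes, at 87.4 and 64.6 CPM in activated fibroblasts of the control and deletion-labelled libraries and at 17.4 to 23.4 CPM in resident fibroblasts. Smooth muscle cells stood well above the other classes, and the lowest pericyte level came closest to activated fibroblasts.

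The tropomyosins, which lie along the actin filament and gate the myosin sites, were read in every class. Tpm1, also a main tropomyosin of cardiac muscle (chr9:67022590-67049406, minus strand), was at 3966 and 4239 CPM in smooth muscle cells without and with infarction, 371 to 402 CPM in pericytes, 577 and 534 CPM in control and deletion-labelled activated fibroblasts, 154 to 226 CPM in resident fibroblasts and 260.1 to 279.5 CPM in endothelial cells. Cardiomyocytes carried 1706 and 1039.8 CPM in the control and deletion-labelled libraries without infarction, so Tpm1 was also high outside the compared cells. Tpm2, the beta-tropomyosin (chr4:43514711-43523765, minus strand), was at 4657 and 5972 CPM in smooth muscle cells. Pericytes carried 611, 644 and 1032 CPM of it, activated fibroblasts 833 and 728 CPM, and resident fibroblasts 47.6 to 66.2 CPM. Pericytes and activated fibroblasts therefore overlapped in their Tpm2 levels, unlike in Acta2.

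Tagln (chr9:45929619-45936058, minus strand), which encodes transgelin, an actin-bundling protein of the calponin family, had the widest span between mural types. Smooth muscle cells carried 6064 and 9529 CPM without and with infarction, whereas pericytes carried 18.4, 16.7 and 16.7 CPM. Activated fibroblasts carried 586 and 481 CPM and resident fibroblasts 11.0 to 21.7 CPM, so pericytes were at the level of resident fibroblasts. Cnn1 (chr9:22099216-22109630, plus strand), the calponin that inhibits the myosin ATPase, was read at 159 CPM (131 UMIs) and 97.4 CPM (24 UMIs) in smooth muscle cells and from 14 and 18 UMIs in infarction mural cells. Activated fibroblasts had 98 UMIs of it (4.12 CPM) in the control and 42 UMIs in the deletion-labelled one (1.87 CPM), and pericytes at most 1 UMI in a library. Lmod1 (chr1:135324807-135368065, plus strand), the leiomodin that nucleates actin filaments in smooth muscle, was at 834 and 739 CPM in smooth muscle cells, at 8.69 to 26.6 CPM in pericytes and at no more than 2.28 CPM in either kind of fibroblast. Des (chr1:75360329-75368579, plus strand), the muscle intermediate filament desmin, was at 901 and 1527 CPM in smooth muscle cells and at 175 to 257 CPM in pericytes. Activated fibroblasts held 20.8 and 21.9 CPM of Des, against 8.34 to 21.2 CPM in resident fibroblasts, so Des was higher in the mural cells than in fibroblasts of either state.

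**Figure D1:**
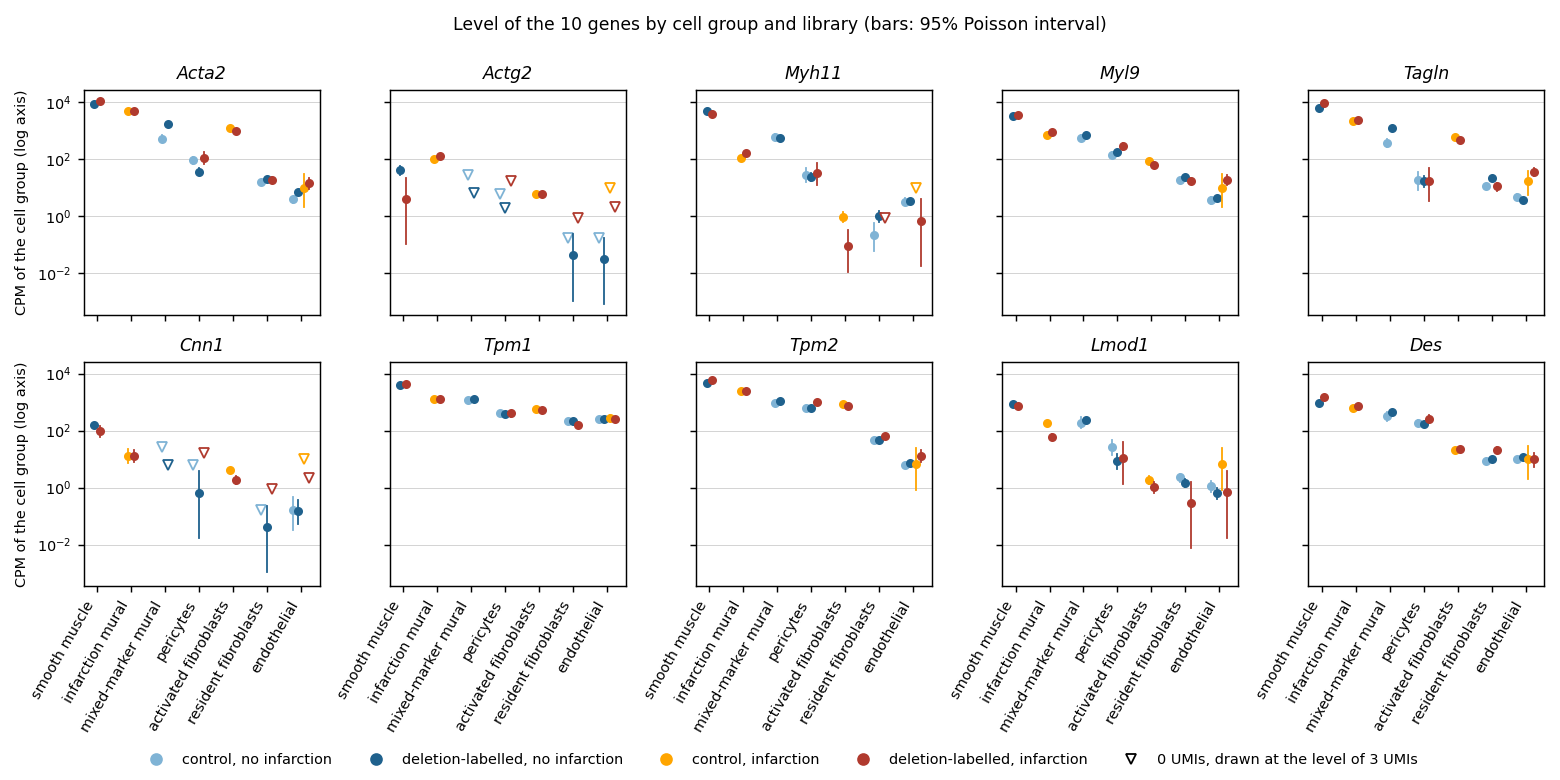
Level of each of the 10 genes (CPM, log axis) by cell group, 1 point per library with its 95% Poisson interval, for sums of at least 20 cells, with open triangles at the level of 3 UMIs where no UMI was read. Acta2 falls from 8931 and 11157 CPM in smooth muscle cells through the infarction mural cells and activated fibroblasts to 36.1 to 112 CPM in pericytes, whereas Des, at 175 to 257 CPM in pericytes and 20.8 and 21.9 CPM in activated fibroblasts, is higher in pericytes.

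Levels are compared within a gene and not between genes, since reads come from the 3′ end and capture may differ. Added together, the 10 genes made up 33742 CPM in smooth muscle cells without and 40607 CPM with infarction. The sum was 1509, 1462 and 2141 CPM in pericytes of the control and deletion-labelled libraries without infarction and the deletion-labelled infarction library. Activated fibroblasts held 3393 and 2829.6 CPM and resident fibroblasts 289 to 339 CPM, a range that overlapped the 299 to 358 CPM of endothelial cells. Most of the endothelial sum was Tpm1, so the overlap does not hold member by member. Without infarction Myl9 was higher in resident fibroblasts (18.0 and 23.4 against 3.57 and 4.42 CPM). Myh11 was lower in them (0.222 and 1.01 against 3.24 and 3.41 CPM, control and deletion-labelled). Infarction mural cells held 12794 and 13381 CPM, and mixed-marker mural cells 4697 and 7384 CPM.

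**Figure D2:**
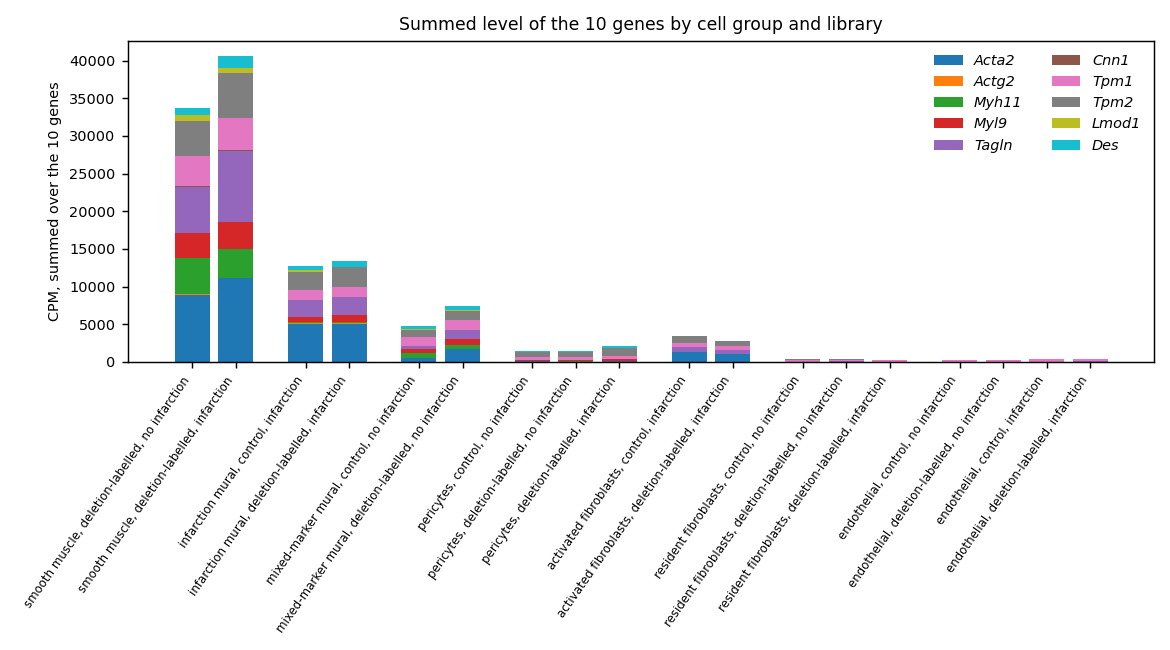
Level summed over the 10 genes (CPM, linear axis) by cell group and library, each bar stacked by gene. Smooth muscle cells reach 33742 and 40607 CPM, infarction mural cells 12794 and 13381 CPM and activated fibroblasts 3393 and 2829.6 CPM.

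Which member separates which cells was read from the log2 ratio of CPM with its exact 95% counting interval, and a member was counted as higher or lower where it passed 1.5-fold, which is a size and no test. Counts use sums under 3 UMIs raised to 3, and a ratio with a sum of 1 or 2 UMIs is given as read. A ratio against 0 UMIs is given as a bound with the 0 raised to 3. Such a bound leaves out counting error, so its interval can start lower. In the deletion-labelled library without infarction all 10 members passed the 10-UMI minimum and all 10 were higher in smooth muscle cells than in pericytes, where 13.3% of 10124 features were higher and 38.9% lower. The median log2 ratio was 5.34 for the members and -0.38 for all features. Tagln differed most (8.50, interval 7.94 to 9.13, or 363-fold), followed by Acta2 (7.95, 7.57 to 8.37, or 248-fold) and Myh11 (7.65, 7.17 to 8.16, or 200-fold). Des (2.36, 5.15-fold) and Tpm2 (2.85, 7.23-fold) differed least. Actg2, with 0 UMIs in pericytes, was higher by a bound of 20.7-fold, and its interval started at 15.9-fold. In the deletion-labelled infarction library 9 members passed the minimum and the same 9 were higher, beside 22.9% of features higher and 34.4% lower. Their median was 3.64, with Tagln again at the top (9.15, 7.60 to 11.43) and Actg2 at or under 3 UMIs in both types.

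Smooth muscle cells and activated fibroblasts share Acta2 and Tagln as markers, yet 9 members were higher in smooth muscle cells and none lower in the deletion-labelled infarction library, where 29.6% of features were higher and 27.2% lower. Acta2 was 11.3-fold higher (log2 3.49, 3.44 to 3.55) and Tagln 19.8-fold (4.31, 4.24 to 4.37). Myh11, with 2 UMIs in the fibroblasts, was at a log2 ratio of 15.40 (13.55 to 18.45), followed by Lmod1 (9.49, 8.86 to 10.19), Des (6.13, 5.93 to 6.32) and Myl9 (5.75, 5.63 to 5.88). Actg2 could not be resolved at 1 UMI.

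Pericytes and activated fibroblasts of that library differed in both directions. Des (3.55, 3.08 to 3.99) and Myl9 (2.11, 1.67 to 2.52) were higher in pericytes, and Tagln (-4.85, -7.12 to -3.30) and Acta2 (-3.15, -3.86 to -2.52) were lower. Of the 9 members that reached 10 UMIs in a sum 6 were resolved. Of these 6, 2 were higher and 2 lower, where 42.9% of all features were higher and 20% lower. Myh11 was read from 6 UMIs in pericytes and 2 in activated fibroblasts, under that minimum, at 8.55 (6.07 to 11.89). Tpm1 (-0.41) and Tpm2 (0.50) stayed within 1.5-fold, and Actg2, Cnn1 and Lmod1 were not resolved at this depth. The median over the 6 resolved members was 0.05, against 0.36 over all features.

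Activated fibroblasts were set against resident fibroblasts of the same deletion-labelled infarction library. Of the 10 members 7 were higher and none lower, where 24.0% of features were higher and 29.5% lower, and the median was 1.89. Acta2 was 54.1-fold higher (5.76, 5.40 to 6.14) and Tagln 43.6-fold (5.45, 4.99 to 5.95). Tpm2 was 11.0-fold higher, Myl9 3.71-fold and Tpm1 3.47-fold, and the bounds for Actg2 and Cnn1 were log2 2.74 and 1.10. Des (0.04, -0.31 to 0.42) stayed within 1.5-fold. Lmod1 rested on 1 UMI in resident fibroblasts, with a ratio of 1.82 as read (-0.80 to 7.18) that is not counted as higher, and Myh11 had fewer than 3 UMIs in both. Activated fibroblasts of this library had a median of 32577 UMIs per cell and resident fibroblasts 10567.

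Resident fibroblasts of the libraries without infarction were another reference. In the control genotype 9 members were higher in activated fibroblasts, beside 25.8% of features higher and 41.0% lower, with Acta2 at 6.31 (6.14 to 6.48), Tagln at 5.64 (5.44 to 5.84) and Tpm2 at 4.11 (4.01 to 4.21). In the deletion-labelled genotype 8 were higher and 1 lower, beside 22.8% and 36.9%, with Acta2 at 5.63 (5.50 to 5.76), Tagln at 4.47 (4.34 to 4.60) and Tpm2 at 3.93 (3.85 to 4.02). Actg2 was higher by a bound of 5.21 in the control and by 7.12 (4.62 to 12.44) in the deletion-labelled genotype, and Cnn1 by a bound of 4.63 and by 5.48 (2.92 to 10.82), with 1 resident UMI of either gene in the latter. Des, level within the infarction library, was higher by 1.32 (1.05 to 1.59) and 1.06 (0.83 to 1.28). Lmod1 was at -0.30 (-0.95 to 0.35) and -0.56 (-1.38 to 0.24), within 1.5-fold in both. Myh11 was the lower member of the deletion-labelled genotype at -3.50 (-6.62 to -1.49) and a higher member of the control at 2.12 (0.57 to 4.11), but both values rest on sums of 2 to 24 UMIs. With the endothelial level subtracted, both sums behind the former were used up and set to 3 UMIs, so that ratio was not resolved. These comparisons use the same activated fibroblasts as the one before and are not independent of it.

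**Figure D3:**
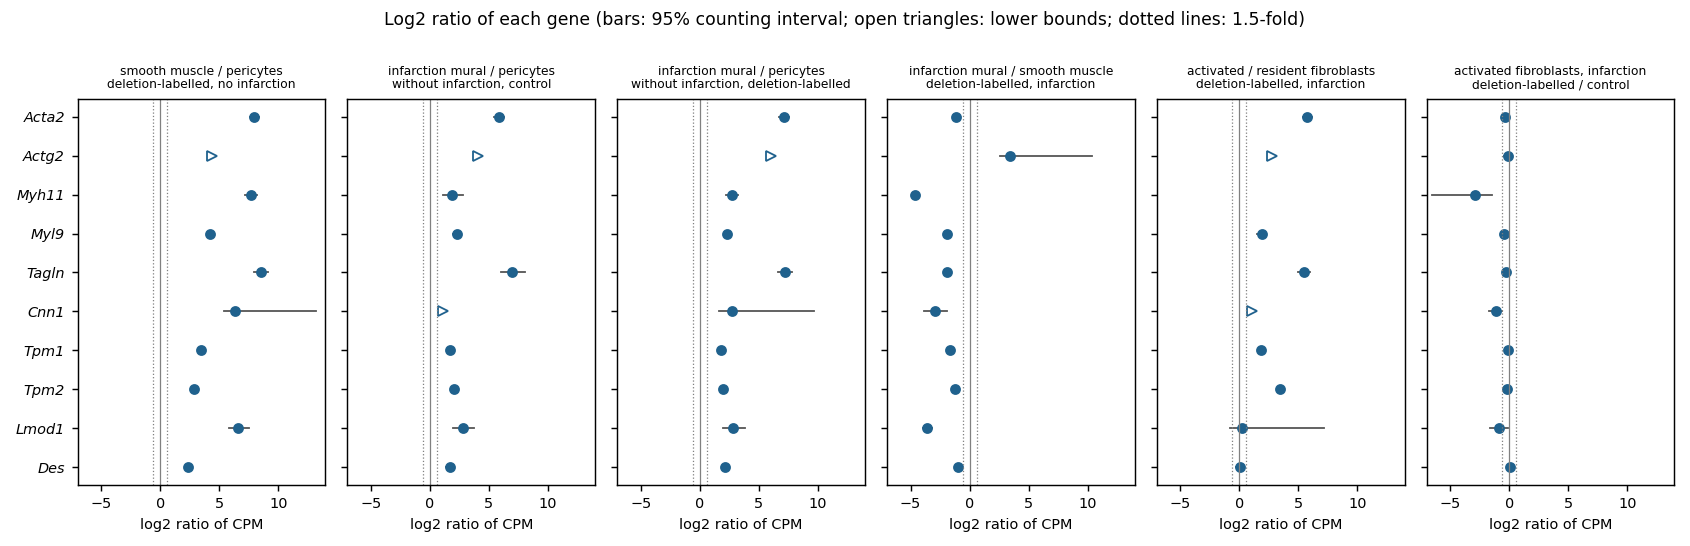
Log2 ratios of CPM for each gene in 6 comparisons, bars being 95% counting intervals, open triangles lower bounds and dotted lines 1.5-fold, with unresolved ratios left out. All members lie to the right for smooth muscle cells against pericytes (2.36 to 8.50), whereas in activated against resident fibroblasts Acta2, Tagln and Tpm2 have the highest values and Des lies at 0.04. Sums of 1 or 2 UMIs are drawn as 3, which pulls Lmod1 of that panel and Actg2 of infarction mural against smooth muscle cells towards 0.

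Infarction mural cells carried the whole set above the level of pericytes. Against pericytes without infarction of the same genotype all 10 members were higher in the control (24.3% of features higher, 36.5% lower) and in the deletion-labelled genotype (19.1% and 36.0%). Tagln was 123-fold and 147-fold higher and Acta2 56.2-fold and 138-fold in the control and deletion-labelled genotypes, whereas Tpm1 was higher by log2 1.67 and 1.82. Against pericytes of the deletion-labelled infarction library 9 were higher (16.6% of features higher, 34.0% lower), with Tagln at 7.20 (5.65 to 9.48) and Acta2 at 5.48 (4.86 to 6.20). Against smooth muscle cells of that library 9 were lower and 1 higher, beside 18.4% of features lower and 26.0% higher. Myh11 was furthest below (-4.60, -4.82 to -4.39), then Lmod1 (-3.58, -3.97 to -3.20), and Actg2 was the one member above (5.03, 2.54 to 10.34), against 1 UMI in the smooth muscle cells. Acta2 (-1.16, -1.22 to -1.10) and Des (-1.0, -1.17 to -0.83) came closest to the smooth muscle level. Against activated fibroblasts all 10 were higher in the control (23.3% of features higher, 17.6% lower) and the deletion-labelled infarction library (24.4% and 15.7%), by 1.99 and 2.33 for Acta2, 4.02 and 4.51 for Actg2 and 4.90 and 5.12 for Des. These comparisons share the infarction mural cells.

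Mixed-marker mural cells lay between pericytes and smooth muscle cells. In the control library without infarction 7 members were above pericytes (13.6% of features higher, 18.8% lower), and in the deletion-labelled one 8 (8.73% and 21.0%). Acta2 was higher by 2.54 (1.94 to 3.14) in the control and 5.60 (5.20 to 6.02) in the deletion-labelled library, and Myh11 by 4.42 (3.58 to 5.37) and 4.52 (4.01 to 5.06). Smooth muscle cells of the deletion-labelled library exceeded them in all 10 members (17.2% of features higher, 24.5% lower), from Des at 0.98 (0.76 to 1.21) to the Cnn1 bound of 4.66. Whether these cells are doublets of a smooth muscle cell and a pericyte was not tested beyond the doublet removal, and their median of 4 detected members per cell is given below. Endothelial markers summed to 2780 and 3529 CPM in them in the control and deletion-labelled libraries. Pericytes of these libraries held 2587 and 2675 CPM and deletion-labelled smooth muscle cells 1762 CPM. A part of endothelial RNA in these cells was not tested either.

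Infarction was compared with no infarction inside a class. In smooth muscle cells of the deletion-labelled genotype, 23 against 86 cells, Tagln (0.65, 0.58 to 0.72) and Des (0.76, 0.58 to 0.94) were higher and Actg2 (-3.35, -8.69 to -0.77, from 1 and 34 UMIs) and Cnn1 (-0.71, -1.40 to -0.08) lower. That is 2 members each way, beside 17.5% of features higher and 21.6% lower, and with median-of-ratios scaling or a mean of CPM per cell only 1 stayed higher. Acta2 (0.32), Tpm2 (0.36), Myh11 (-0.32), Lmod1 (-0.17), Tpm1 (0.10) and Myl9 (0.05) were within 1.5-fold. In pericytes of that genotype, 45 against 279 cells, Acta2 (1.63, 0.81 to 2.39), Tpm2 (0.68, 0.44 to 0.91) and Myl9 (0.59, 0.13 to 1.03) were higher and none was lower, beside 18.7% and 13.9%, and with median-of-ratios scaling 1 stayed higher. The Acta2 value rests on 20 UMIs in the infarction library. Tagln, with 3 UMIs there, was at 0.00 (-2.37 to 1.71), an interval too wide to place it beside Acta2.

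Over all fibroblasts, whatever their state, the infarction libraries showed 9 members higher and none lower in the control genotype (25.2% of features higher, 40.5% lower), and 8 higher and 2 lower in the deletion-labelled one (20.7% and 32.9%). Acta2 was higher by 5.88 (5.74 to 6.03) and 4.64 (4.54 to 4.74), Tagln by 4.96 (4.81 to 5.12) and 3.36 (3.26 to 3.45), and Tpm2 by 3.89 (3.80 to 3.98) and 3.49 (3.41 to 3.57). The infarction libraries also differed in which fibroblasts they held. Resident fibroblasts were 9 of 892 fibroblasts in the control and 317 of 1432 in the deletion-labelled infarction library, so over all fibroblasts a difference in level and a difference in makeup cannot be told apart. Within activated fibroblasts, deletion-labelled against control, no member was higher and 3 were lower, where 7.17% of features were higher and 4.45% lower. Those 3 were the sparsely read Cnn1 (-1.14, -1.70 to -0.61), Lmod1 (-0.85, -1.65 to -0.10) and Myh11 (-3.44, -6.57 to -1.42, from 2 and 23 UMIs). With the endothelial level subtracted Lmod1 turned to 1.35, but the control sum was then used up and set to 3 UMIs. The level subtracted came from only 40 control and 289 deletion-labelled endothelial cells. The abundant members differed by less than 1.5-fold, with Acta2 at -0.36 (-0.39 to -0.34), Myl9 at -0.43 (-0.53 to -0.34), Tagln at -0.28 (-0.32 to -0.25) and Tpm2 at -0.19 (-0.22 to -0.16). Acta2 was lower in the deletion-labelled library in each of the 3 activated clusters, at 1334, 1294 and 1142 CPM in the control against 979, 1026 and 961 CPM. With 1 library in each group a genotype difference of this size cannot be told apart from a difference between libraries.

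In pericytes without infarction, deletion-labelled against control, Acta2 (-1.32, -1.92 to -0.71) and Lmod1 (-1.62, -2.84 to -0.39, from 13 UMIs in each) were lower and no member was higher, beside 12.6% of features lower and 15.3% higher. The Acta2 levels behind this were 90.2 and 36.1 CPM in control and deletion-labelled pericytes. Neutrophils of the same libraries held 83.2 CPM (35.9 to 164, 8 UMIs) and 50.6 CPM (31.7 to 76.6, 22 UMIs), wide intervals that take in the pericyte levels. How much of the pericyte level is RNA of other cells was not tested. In infarction mural cells Lmod1 was the 1 member lower (-1.57, -1.95 to -1.19) and none was higher, beside 6.92% and 14.2%. Acta2 was level there at -0.02 (-0.07 to 0.03), but without the cycling cells 4 members were lower. In resident fibroblasts without infarction Tagln (0.88, 0.65 to 1.12) and Myh11 (2.18, 0.64 to 4.16) were higher and Lmod1 (-0.60, -1.28 to 0.09) lower, beside 9.06% and 7.36%. With the endothelial level subtracted 1 stayed higher, while both Myh11 sums were used up and set to 3 UMIs, so Myh11 was not resolved. Lmod1 was thus below the control in all 4 of the classes compared by genotype, at no more than 193 UMIs in any of these sums, while the other members had no common direction. Its interval reached 0.09 in resident fibroblasts. In activated fibroblasts its sign turned with the subtraction named above, where the control sum was set to 3 UMIs. Pericytes and resident fibroblasts came from the same libraries, as did activated fibroblasts and infarction mural cells. The 4 classes are therefore not independent, and a difference between libraries cannot be told apart from genotype.

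How many cells carried a member was counted after each cell was thinned to 2000 UMIs, because the classes differ in depth. Acta2 was detected in 100% of smooth muscle cells of both deletion-labelled libraries, in 75% and 76.1% of control and deletion-labelled infarction mural cells and in 6.67%, 5.07% and 18.6% of pericytes of the control and deletion-labelled libraries without infarction and the deletion-labelled infarction library. Activated fibroblasts carried it in 67.7% of cells in the control (exact binomial interval 63.9 to 71.3) and 57.7% in the deletion-labelled library (53.8 to 61.5), so the lower Acta2 level of the latter went with fewer positive cells. Resident fibroblasts carried it in 2.24% to 3.81% and endothelial cells in 0 to 1.92%, at unthinned medians of 10348 to 13259 and 3640 to 5316.5 UMIs. Myh11 was detected in 100% and 95.7% of smooth muscle cells without and with infarction, in 8.82% and 9.78% of infarction mural cells and in 0.155% and 0 of activated fibroblasts. Without thinning Myh11 was detected in 29.4% and 33.3% of infarction mural cells. Smooth muscle cells had a median of 8 of the 10 members each and 100% of them had at least 5. The share with at least 5 was 54.4% and 54.3% in infarction mural cells, 24% and 39.0% in mixed-marker mural cells, 7.31% and 6.44% in activated fibroblasts, 0.952% to 6.98% in pericytes and at most 0.057% in resident fibroblasts. The median cell held 5 members in infarction mural cells, 4 in mixed-marker mural cells, 2 in activated fibroblasts and in pericytes and 0 in resident fibroblasts.

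**Figure D4:**
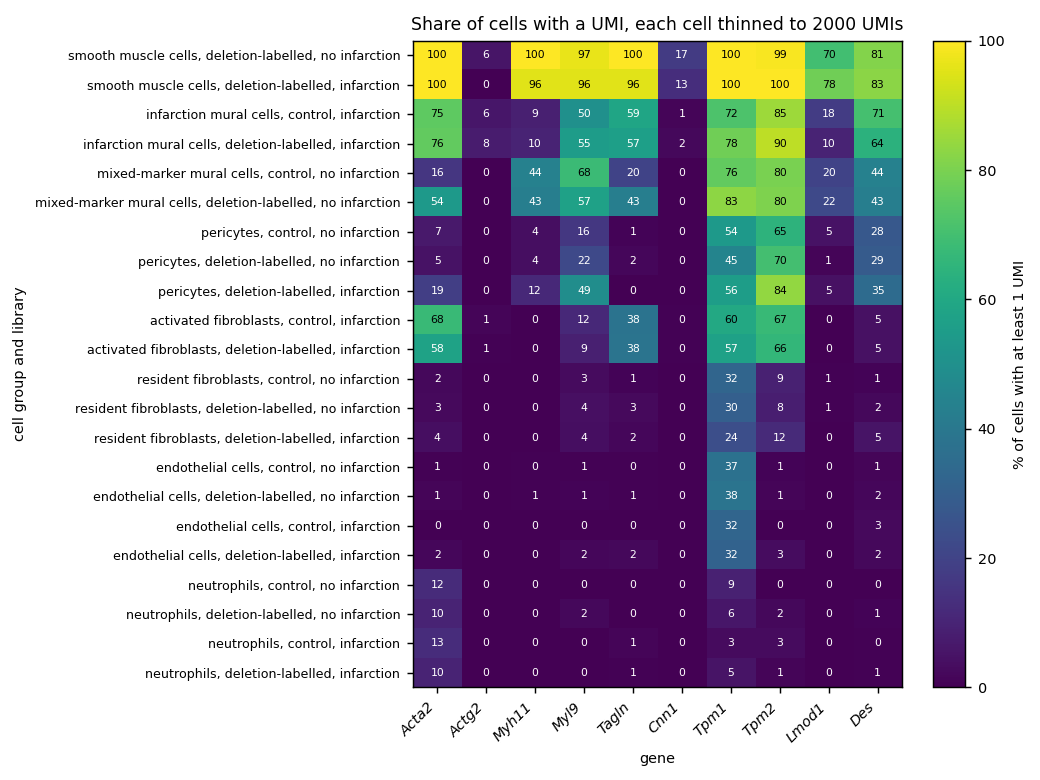
Heat map of the percentage of cells with at least 1 UMI of each gene after thinning to 2000 UMIs per cell, with cell groups and libraries in rows. Smooth muscle cells are at 95.7% or more for Acta2, Myh11 and Tagln, activated fibroblasts hold Acta2 in 67.7% and 57.7% of cells with almost no Myh11, and pericytes hold Tpm2 in 64.8% to 83.7% with Acta2 in at most 18.6%.

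The genes around the apparatus were read from 4 lists. Of 22 regulators of contraction and calcium, 16 were higher and 1 lower in smooth muscle cells than in pericytes of the deletion-labelled library without infarction (median 1.30), where 13.3% of all features were higher and 38.9% lower. In the infarction library 15 were higher and 1 lower, beside 22.9% and 34.4% of features. Csrp1, a LIM protein of the actin cytoskeleton, was at 526 against 26.7 CPM (4.30) without infarction. The integrin subunit Itga1 was the lower one, at 422 against 1304 CPM (-1.63). Against activated fibroblasts 20 of the 22 were higher in smooth muscle cells and none lower (median 2.67), beside 29.6% and 27.2% of features, led by Mylk, the myosin light chain kinase, at 1916 against 6.90 CPM (8.12), and Mrvi1, a brake on calcium release, at 260 against 2.63 CPM (6.63). In activated against resident fibroblasts of the infarction library the list split into 9 higher and 8 lower (median 0.08), beside 24.0% and 29.5% of features. Csrp1 was at 1.75 and Vcl, the adhesion protein vinculin, at 1.31, whereas Prkg1, the cyclic GMP-dependent kinase of relaxation, was at -1.95 and Synpo2, an actin-bundling protein, at -1.86. Infarction mural cells against activated fibroblasts showed 19 higher in the control and 20 in the deletion-labelled library, beside 23.3% and 24.4% of features, and none lower.

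Of 16 non-muscle relatives of the members, 15 reached the UMI minimum in activated against resident fibroblasts of the infarction library, and 11 were higher and 1 lower (median 0.97), beside 24.0% and 29.5% of features. Actn1, an actin crosslinker of stress fibres, was at 3.06 and Cnn2, the non-muscle calponin, at 2.21, whereas the non-muscle myosins Myl12b and Myh10 were at -0.91 and -0.22. Infarction mural cells exceeded pericytes without infarction in 11 and 12 of the same 15 in the control and deletion-labelled genotypes, beside 24.3% and 19.1% of features, with 2 lower in each, beside 36.5% and 36.0%. Vim, the intermediate filament vimentin, led at 3.32 and 2.95, followed by Tpm4 at 2.49 and 2.44. Smooth muscle cells against pericytes gave 6 higher and 3 lower of 15 without infarction, beside 13.3% and 38.9% of features, with Actn1 at 2.33 and the filament-capping Tmod3 at -2.36, so this list did not move as a whole.

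Of 12 transcription factors and cofactors, 11 reached the minimum in smooth muscle cells against pericytes without infarction, and 5 were higher and 3 lower, beside 13.3% and 38.9% of features. Myocd was read at 118 CPM (97 UMIs) in smooth muscle cells and from 0 UMIs in pericytes, a log2 bound of 5.88, and Mef2c was higher by 1.15, whereas the Notch target Heyl was at -1.93 and Tbx18 at -1.05. In infarction mural cells Myocd, looked up there after its smooth muscle value was seen, had 2 and 1 UMIs in the control and deletion-labelled libraries. Their Srf was above that of pericytes without infarction by 1.78 in the control and 2.05 in the deletion-labelled genotype. In activated against resident fibroblasts of the infarction library Foxs1 was at 1.75 and Srf at 16.1 against 6.10 CPM (1.40), and Klf4, a factor known to repress smooth muscle genes, was at -2.36, within a list that split into 4 higher and 4 lower of 11, beside 24.0% and 29.5% of features. The 15 striated muscle genes, which mark cardiomyocyte RNA, were mostly lower in activated than in resident fibroblasts, with 1 higher and 7 lower of 8 within the infarction library, beside 24.0% and 29.5% of features. Against resident fibroblasts without infarction they were 1 higher and 9 lower of 11 in the control, beside 25.8% and 41.0%, and 1 higher and 11 lower of 12 in the deletion-labelled genotype, beside 22.8% and 36.9%. In smooth muscle cells against pericytes without infarction 6 of them reached the minimum and 4 were higher and none lower, beside 13.3% and 38.9%, and none reached it with infarction.

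The genes whose pattern was most like that of the 10 members were ranked by Pearson's r of log2 levels over 39 sums of 14 classes, among 8331 genes, as a description. Mark1 (0.912), Ddit4l (0.907), Smarcd3 (0.905), Lpp (0.890), Map3k7cl (0.889), Rasl11a (0.888), Aoc3 (0.883), Speg (0.882), Synpo2 (0.877) and Parm1 (0.875) came first. For Acta2 alone they were Map3k7cl (0.858), Ddit4l (0.836), Mark1 (0.811), Cyp7b1 (0.807) and Ptges3l (0.791). Map3k7cl was among the markers that named the smooth muscle cells, and the sums share libraries and depths.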

How the data were processed

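The deposited matrices hold UMI counts per gene and barcode, made by the authors with Cell Ranger 5.0.1 on mm10 per the submitters' processing notes, and 16000 cells were loaded in each library per the labels' protocols. From those counts, barcodes were kept from 500 UMIs and 200 genes up, with no more than 20% of their UMIs mitochondrial. That removed 205, 367, 250 and 544 barcodes, and a score from simulated pairs (50 neighbours, 0.8% assumed per 1000 barcodes) removed a further 655, 1032, 812 and 898 as doublets, in the order control and deletion-labelled without infarction, then with infarction. The libraries held 55710468, 88509231, 129704045 and 127757911 UMIs. Cells were clustered on 2000 variable genes without the 10 members and mitochondrial genes (30 components, 20 neighbours, Leiden resolution 1), and mural and fibroblast clusters were split again (1000 genes, 15 components, resolution 0.6).

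A cluster was named from marker lists. The naming limits (a lead of 0.2 in mean share between paired lists, 80% infarction cells for infarction mural cells, 6 markers of both lists for mixed-marker cells), the comparisons of those groups and of resident fibroblasts by genotype, and the repeat without cycling cells were chosen after the data were seen, and the members and gene lists were chosen with earlier results of these data known. Clusters were cut from the same cells, so their contrasts are descriptions. Sums of at least 20 cells were compared, as CPM with exact 95% counting intervals that say nothing of animals, and for counts of members, medians and the plot sums under 3 UMIs enter a ratio as 3, while intervals, and printed ratios of sums of 1 or 2 UMIs, use the UMIs as read. A ratio was called not resolved where a sum under 3 UMIs, raised to 3, would stand above the other side's level, and features needed 10 UMIs in either sum. All 10 members are named, and of each list the 2 highest and 2 lowest ratios among genes with at least 30 UMIs could be named, and 1 gene of these is not reported here. The most similar genes were taken among those with at least 50 CPM in a sum, on log2(CPM + 1). Per-cell shares used cells thinned to 2000 UMIs. Scripts were tested on simulated counts. Tools were Python 3.11.15, numpy 2.4.6, scipy 1.17.1, scikit-learn 1.9.0, leidenalg 0.10.2 and igraph 0.11.9. Genotypes could not be compared in smooth muscle cells, with 1 and 5 control cells.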

Additional observations from a re-analysis of the deposited data

Results flagged for a closer look

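Myh11 in fibroblasts had opposite signs in the 2 genotypes, and the difference between them was not tested. Over all fibroblasts, infarction against no infarction gave a log2 ratio of 1.88 in the control and -2.40 in the deletion-labelled genotype. In activated against resident fibroblasts without infarction the ratios were 2.12 and -2.91, the latter with a sum of 2 UMIs taken as 3 and -3.50 as read. The sums behind them are small, with 5, 26, 25 and 6 UMIs over all fibroblasts in the order control and deletion-labelled without infarction, then with infarction, and 4 and 24 UMIs in resident and 23 and 2 UMIs in activated fibroblasts of the control and deletion-labelled genotypes. Endothelial cells of the libraries without infarction held 3.24 and 3.41 CPM of Myh11, more than the fibroblast sums of the same libraries at 0.222 to 1.01 CPM. Smooth muscle cells numbered 1 and 86 in those libraries. With infarction the 40 and 289 endothelial cells held 0 and 0.702 CPM, from 0 and 1 UMI. Over all and activated fibroblasts the levels were 0.904 and 0.968 CPM in the control and 0.182 and 0.0891 CPM in the deletion-labelled infarction library.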

How the results depend on the processing

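No paired analysis was possible because there was 1 library in each group. Of the counts recomputed under another setting, 266 stayed within 1.5 times of the reported count and 20 moved, and of the single ratios 1597 stayed within their interval, 395 moved and 3 changed sign. Beyond the UMI floor named below, the cause was not tested for any of them. In smooth muscle cells, infarction against none, 1 member was higher with median-of-ratios scaling and 1 with a mean of CPM per cell, and in pericytes 1 with median-of-ratios scaling. Without cycling cells 4 members were lower in deletion-labelled than control infarction mural cells. With the endothelial level subtracted 1 member was higher in deletion-labelled than control resident fibroblasts. Myh11 had both sums used up and set to 3 UMIs there, and also in activated against resident fibroblasts of the deletion-labelled genotype. Its values of -0.41 and 0.0883 then reflect only the total UMIs of the groups and were not resolved. Lmod1 in deletion-labelled against control activated fibroblasts turned to 1.35, with its control sum used up and set to 3 UMIs. The 3 changes of sign all came with this subtraction. Members found in at least 50% of cells numbered, with thinning to 1000 UMIs, 0 in pericytes of either library without infarction, 1 in those of the deletion-labelled infarction library, 0 in deletion-labelled activated fibroblasts and 2 and 3 in control and deletion-labelled infarction mural cells. Without thinning they numbered 3 and 4 in deletion-labelled pericytes without and with infarction and 5 in activated fibroblasts of either genotype. With at least 30 UMIs asked of a gene, striated genes higher in smooth muscle cells than pericytes without infarction numbered 1 and transcription factors higher with infarction 0. Striated genes lower in activated than resident fibroblasts of the infarction library then numbered 3, those lower in deletion-labelled than control pericytes 0 and those higher in deletion-labelled activated fibroblasts 0. Genotype comparisons of smooth muscle cells were not run for want of control cells.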

Other observations

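Neutrophils, which are not known for a contractile apparatus of this kind, held 83.2, 50.6, 72.8 and 58.5 CPM of Acta2 in the control and deletion-labelled libraries without infarction, then with infarction. After thinning to 2000 UMIs 12.1%, 9.80%, 12.8% and 9.88% of the 33, 102, 1962 and 2246 neutrophils that reached this depth carried an Acta2 UMI, at unthinned medians of 2856, 3882, 2126 and 2252 UMIs. Tagln was at 6.92 and 4.77 CPM in neutrophils with infarction (53 and 41 UMIs) and at 3.63 to 35.8 CPM in endothelial cells of the 4 libraries, and it was found in 0, 0, 1.27% and 0.668% of the same neutrophils. Acta2 was found in 0 to 1.92% of endothelial cells. Pericytes held 90.2 and 36.1 CPM of Acta2 in the control and deletion-labelled libraries without infarction, near the neutrophil level, which rests on only 8 and 22 UMIs there. In the deletion-labelled infarction library they were above it, at 112 CPM. The Acta2 level of neutrophils was thus above that of endothelial and resident fibroblast cells in each library where they were compared, and it did not differ in one direction between libraries with and without infarction.

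Control smooth muscle cells, too few to compare, carried Acta2 at 4917 CPM in the 1 cell without infarction and at 8173 CPM in the 5 cells with infarction. Before any filter, barcodes with at least 5 Myh11 UMIs numbered 15, 147, 18 and 36 in the same library order, of 9149, 11541, 10203 and 10873 barcodes. Each control library thus held fewer of them than the deletion-labelled library of the same treatment before cells were named. Smooth muscle cells numbered 1, 86, 5 and 23, and 4, 118, 5 and 23 at a subcluster resolution 1.5 times as high. The part of filters and naming in these numbers was not tested. Barcodes with at least 5 UMIs of Kcnj8, a pericyte marker, numbered 145, 415, 68 and 131.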
